A study of Mus musculus with 8 samples.

Results

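Vasoactive peptides are short hormones that widen or narrow blood vessels, and cells of the heart both make and sense them. The genes described here are 10 members of 4 such systems, of 37324 gene names on the array: the precursors Kng1, Agt and Edn1, the enzyme Ace, and the receptors Bdkrb1, Bdkrb2, Agtr1a, Ednra, Ednrb and Npy1r. They were taken with every probe that the array files name for them, which gave 17 probes. The genes were selected on the aged minus young differences of log2 signal on these same arrays, so the levels in the pools and those differences are given as a description and no p-value is given for a member.

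The study asked which genes of cardiac mesenchymal stromal cells (cMSCs) change with age. cMSCs are fibroblast-like cells of the heart, and here they were sorted from enzyme-digested ventricles as cells with Sca-1 and PDGFRα and without CD31 and CD45. Total RNA came from 4 pools of young mice (replicates 2, 3, 4 and 5) and 4 pools of aged mice (replicates 1, 2, 3 and 4), all male C57BL/6 mice, labelled as 5 and 20 months old, and each pool was read on its own 1-colour Agilent array. Each pool is described as 3 mice, but the code in the title of aged replicate 4 could stand for 2. More than 1 mouse line was used in the work, and the sources used here do not say which gave these pools. The spread between pools is the error of every difference below, and single mice cannot be seen.

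Kininogen, encoded by Kng1, is cut by kallikreins to bradykinin, which acts on the constitutive B2 receptor (Bdkrb2), while its product without the last arginine acts on the B1 receptor (Bdkrb1), a receptor best known for its induction in inflamed tissue. Angiotensinogen (Agt) is cut by renin, and angiotensin-converting enzyme (Ace) then makes angiotensin II, the ligand of the AT1 receptor (Agtr1a). The same enzyme inactivates bradykinin. Endothelin-1 (Edn1) narrows vessels through the ETA receptor (Ednra), and the ETB receptor (Ednrb) also clears it. Neuropeptide Y is released by sympathetic nerves of the heart and acts on the Y1 receptor (Npy1r) among others. In fibroblasts angiotensin II and endothelin-1 are known for promoting matrix production.

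A level below is the log2 of the processed signal of a spot (its intensity after the scanner software took off background) minus the log2 of the 75th percentile of its array. It compares pools for 1 probe, and levels of different probes cannot be ranked against each other. A probe is called well above background where the scanner software gave it that mark on an array. Differences are aged minus young group means with the standard error (SE) of a limma fit over all 8 arrays, and fold changes are for aged over young pools unless stated.

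2 of the 10 genes had a difference that stood apart from the spread between pools. Npy1r was higher in every aged pool by both of its probes. Kng1 was well above background in all 4 aged pools and in no young pool by 1 of its 3 probes. Agt, Ace, Edn1 and the receptors of kinins, angiotensin and endothelin differed by at most 0.37 on the log2 scale in either direction. In bulk RNA of sorted cells, a change in the number of cells that carry a transcript and a change in the amount per cell cannot be told apart.

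The probes of Kng1 and Npy1r carry the 2 largest differences, so the last 30 bases of each 60-base probe are printed here as the array files give them, 5′ to 3′, with the polyadenylation signal letters AATAAA in capitals where they occur.
Kng1 probe 1: tcctagtggaAATAAAattcagacttgatg
Kng1 probe 2: gcattagatatgactgaaatggcaagaagg
Kng1 probe 3: atagcctttcatttaagctgatatctgatt
Npy1r probe 1: cagacacttctgaattaaaactgagctttt
Npy1r probe 2: gaactataactgtccatttatctaatcggt

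Coordinates come from the array files and are on mm9. Kng1 probe 1 lies at chr16:23081700-23081759 and is annotated to transcript variant 2. Probe 2, annotated to the same transcript, lies at chr16:23077602-23079064. Its 60 bases are drawn from a stretch of 1463 bases, so that it joins 2 exons. Probe 3 lies at chr16:23079732-23079791 and is annotated to transcript variant 1. The variants of this gene are known to encode the low and the high molecular weight kininogens, which share their first part and differ in their ends. Npy1r probe 1 lies at chr8:69230632-69230691 and probe 2 at chr8:69227750-69227809, both annotated to the same transcript. No member probe shared an unbroken run of more than 17 bases with a probe of another gene on the array. Between the 3 Kng1 probes and the probe of the neighbouring kininogen gene Kng2 the longest such run was 7 bases.

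Among the precursors, Kng1 had the largest difference. Probe 1 read -6.81, -6.72, -6.01 and -7.23 in young replicates 2, 3, 4 and 5, and -2.96, -3.36, -2.20 and -2.07 in aged replicates 1, 2, 3 and 4. In intensities these were 3.19 to 12.6 in the young pools and 71.4 to 127 in the aged pools. The groups did not overlap, and the probe was well above background on 0 of 4 young and 4 of 4 aged arrays. Because the young pools gave no signal well above background, the fold was taken against a floor. Each young level below the lowest level of any probe well above background on its array was raised to that floor. Against it the aged mean was 6.10-fold higher on this scale. This fold depends on the background correction and is no minimum under other processing. The measured means were -6.69 ± 0.506 in young and -2.65 ± 0.613 in aged pools (SD, n = 4 each), a difference of 4.05 ± 0.34 (SE), of which the part below background is not a measured level. That difference shrank to 1.25 after normexp background correction with an offset and to 1.92 in the authors' log2 table, both below the differences of Npy1r under the same settings (2.24 and 2.33).

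The other probes of Kng1 did not share this pattern. Probe 2 failed to reach that mark on all 8 arrays, and its intensities were 3.55 to 8.62 in young and 4.67 to 9.09 in aged pools, so the groups overlapped. Probe 3 was well above background in aged replicate 4 alone. It read -2.25 there, an intensity of 107, while the other aged pools lay between -7.68 and -7.13 and the young pools between -8.07 and -7.14. The aged signal of Kng1 in replicates 1, 2 and 3 thus rested on the probe annotated to the end of transcript variant 2. The labelling kit starts its copies at the poly(A) tail, and how far the distance of each probe from that tail bears on these differences was not tested.

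**Figure D1:**
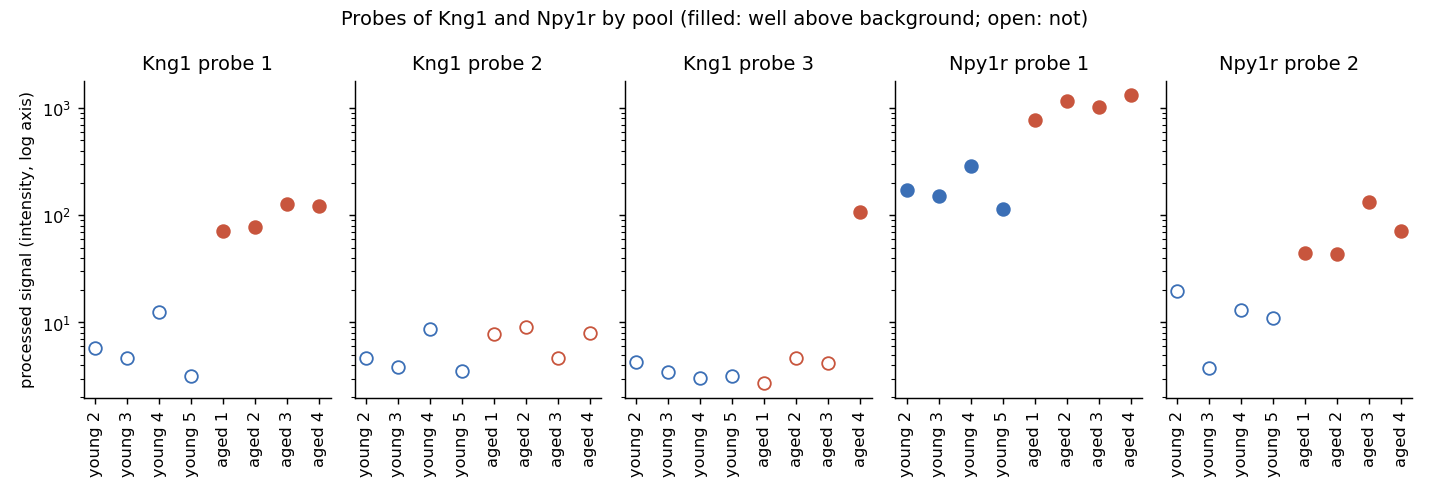
Processed signal (intensity, log axis) of the 3 Kng1 probes and the 2 Npy1r probes in each of the 8 pools, blue for young and red for aged, with filled points well above background and open points not. Kng1 probe 1 and Npy1r probe 2 are filled in the 4 aged pools only, Kng1 probe 2 in none, Kng1 probe 3 in aged replicate 4 only, and Npy1r probe 1 in all 8 pools, at 115 to 287 in young and 779 to 1310 in aged pools.

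Kininogen in plasma is known to come from the liver, so genes of liver plasma proteins were read beside it. Of the 11 listed hepatocyte genes, 5 were tested and 4 were well above background on all 8 arrays. Their summed level, relative to the 75th percentile on a linear scale, was 7.32 to 16.5 in young and 22.9 to 33.1 in aged pools. Ahsg, which encodes the plasma protein fetuin-A, made up most of this sum and rose by 1.31 ± 0.24 (SE, limma adjusted p = 0.027), and Serpina1a, which encodes an antitrypsin, rose by 0.97 ± 0.18 (limma adjusted p = 0.0269). Apoa1, Fgb and Ttr, which hepatocytes make in bulk, were well above background on no array, and Alb, the gene of albumin, was so on 1 young array and no aged array. The remaining genes of the list were named after their values were seen. Apoh differed by -0.37 (limma adjusted p = 0.296), Apoc3 by 0.19 (limma adjusted p = 0.812) and Hpx by 0.45 (limma adjusted p = 0.139), while Fgg was well above background on 0 young and 2 aged arrays and Fga on 3 arrays in all.

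Angiotensinogen varied more within the groups than between them. Agt read -1.85, -2.40, -2.58 and -2.50 in young replicates 2 to 5 and -1.55, -1.65, -2.69 and -2.51 in aged replicates 1 to 4. Aged replicates 1 and 2 were the highest of all pools and aged replicate 3 the lowest, so the young pools lay within the aged range. The difference was 0.23 ± 0.28 (SE).

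Edn1, the precursor of endothelin-1, read 0.13, -0.14, -0.39 and -0.62 in young replicates 2 to 5 and 0.29, -0.22, -0.30 and 0.50 in aged replicates 1 to 4. Aged replicates 1 and 4 lay above every young pool and aged replicates 2 and 3 within the young range. The difference was 0.32 ± 0.22 (SE). Between pools on 1 row of the slide it was 0.77 and on the other row -0.12, with 2 young and 2 aged pools on each, so its direction did not hold within both rows.

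The converting enzyme Ace differed little. It read 3.69, 3.78, 3.51 and 3.61 in young and 3.48, 3.62, 3.34 and 3.42 in aged pools, in the same order of replicates. Aged replicate 2 lay inside the young range and the 3 other aged pools below it. The difference was -0.18 ± 0.09 (SE), a fold of 1.13 higher in young pools.

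Among the receptors, Npy1r had the largest difference. Probe 1 was well above background on all 8 arrays and read -1.91, -1.68, -1.51 and -2.06 in young replicates 2 to 5 and 0.49, 0.53, 0.82 and 1.36 in aged replicates 1 to 4. The lowest aged pool thus lay above the highest young pool, with a gap wider than the spread within either group. The means were -1.79 ± 0.244 in young and 0.80 ± 0.401 in aged pools (SD, n = 4 each), a difference of 2.59 ± 0.21 (SE) or 6.03-fold. Within the rows of the slide it was 2.39 and 2.80.

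The second probe of Npy1r lay on the same side. It read -5.06, -7.02, -5.95 and -5.44 in young and -3.65, -4.18, -2.13 and -2.82 in aged pools, and was well above background on 0 of 4 young and 4 of 4 aged arrays. Against the floor used for Kng1 probe 1, its aged mean was 4.14-fold higher, and the measured difference was 2.67 ± 0.52 (SE). Aged replicate 4 was the highest pool by probe 1 and aged replicate 3 by probe 2.

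The kinin receptors were measured at similar levels at both ages. Bdkrb1, the B1 receptor, read -2.83, -2.64, -2.89 and -2.33 in young and -2.41, -2.83, -2.77 and -2.41 in aged pools, a difference of 0.07 ± 0.16 (SE). Its young and aged pools covered nearly the same range.

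Bdkrb2, the B2 receptor, read -4.05, -4.04, -4.36 and -4.09 in young and -4.14, -3.94, -4.50 and -4.33 in aged pools by its brighter probe, which is annotated to a predicted transcript. Here too the groups overlapped, with a difference of -0.09 ± 0.14 (SE). Intensities of this probe were 28.1 to 39.6 in young and 25.3 to 51.6 in aged pools, all well above background. The other probe of Bdkrb2, annotated to its curated transcript, was well above background on no array.

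The AT1 receptor Agtr1a read -1.71, -1.46, -1.51 and -1.43 in young replicates 2 to 5 and -1.39, -1.41, -1.33 and -0.54 in aged replicates 1 to 4. The groups did not overlap, but aged replicates 1, 2 and 3 lay just above the young pools, and aged replicate 4 stood apart. The difference was 0.36 ± 0.19 (SE) with all pools and 0.15 without aged replicate 4.

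Both endothelin receptors were well above background in all pools by 1 probe each. The ETA receptor Ednra read 0.53, 0.51, 0.53 and 0.51 in young and 0.29, 0.55, 0.05 and -0.27 in aged pools. Its young pools were nearly identical, with an SD of 0.0109, whereas the aged pools had an SD of 0.349. 3 of 4 aged pools lay below the young pools and aged replicate 2 lay just above them, for a difference of -0.37 ± 0.16 (SE), and of -0.23 without aged replicate 4. The second probe of Ednra was well above background on no array.

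The ETB receptor Ednrb read -4.29, -4.02, -4.49 and -4.29 in young and -4.18, -4.54, -4.59 and -4.24 in aged pools by probe 1. The groups overlapped, with a difference of -0.12 ± 0.13 (SE). Its intensities of 24.2 to 36.4 were all well above background. The other 2 probes of Ednrb, each annotated to another transcript variant, were well above background on no array.

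**Figure D2:**
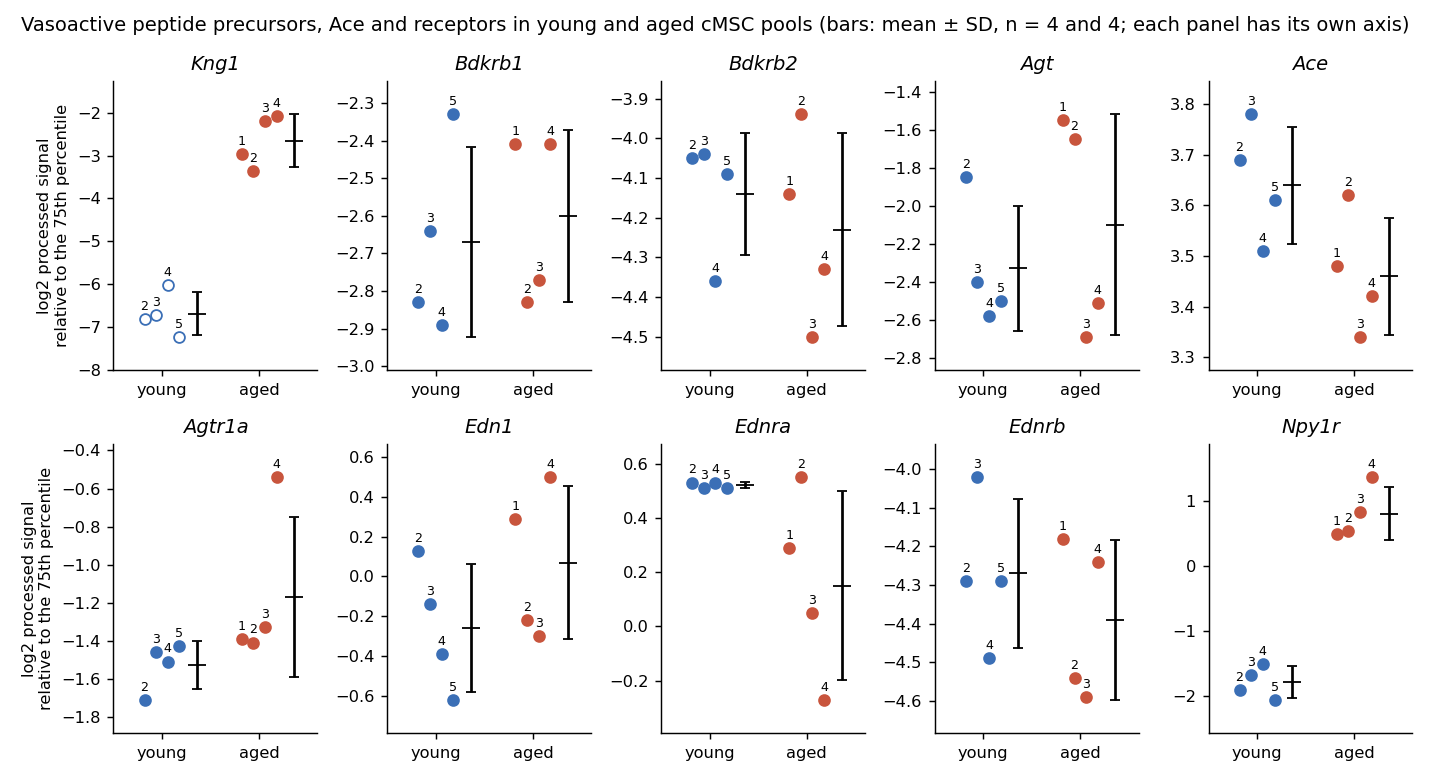
Level of each member (log2 processed signal relative to the array's 75th percentile) in the young and aged pools, numbered by replicate, with the group mean ± SD (n = 4 each). Filled points are well above background, open points are not, and each panel has its own axis. Kng1 and Npy1r separate by age, whereas Agt, Bdkrb1, Bdkrb2, Ace, Edn1, Ednra and Ednrb overlap and Agtr1a is separated narrowly except for aged replicate 4.

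All 10 members had a probe that could be tested, and 9 of them were well above background on all 8 arrays, Kng1 being the exception. In the fit over 20225 genes, 479 genes (2.37%) were higher and 162 (0.801%) lower in aged pools at an adjusted p under 0.05, which is 3.17% in either direction. 2 members, Kng1 and Npy1r, were past this threshold as higher and 0 as lower. For 3 members, Kng1, Npy1r and Agtr1a, every aged pool lay above every young pool. Over the genes tested, 10.7% had groups without overlap in 1 direction or the other. Since the members were chosen with this contrast known, nothing is read from these counts.

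The size of each difference under the 19 alternatives is given as a description of the same selected values. For Npy1r it was 2.24 to 2.70. For Kng1 it was 1.25 to 4.28 under the 18 alternatives in which probe 1 was kept, which it was through the aged pools alone. Where probes had to be well above background on all 8 arrays, Kng1 was left out. The differences of Bdkrb1, Bdkrb2 and Agt ran through 0 or to it under at least 1 alternative, with ranges of 0 to 0.19, -0.19 to 0 and -0.01 to 0.43. Ace (-0.23 to -0.13), Ednra (-0.50 to -0.23), Ednrb (-0.19 to -0.03), Edn1 (0.11 to 0.45) and Agtr1a (0.15 to 0.47) kept their sign under each alternative run on the same probe.

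**Figure D3:**
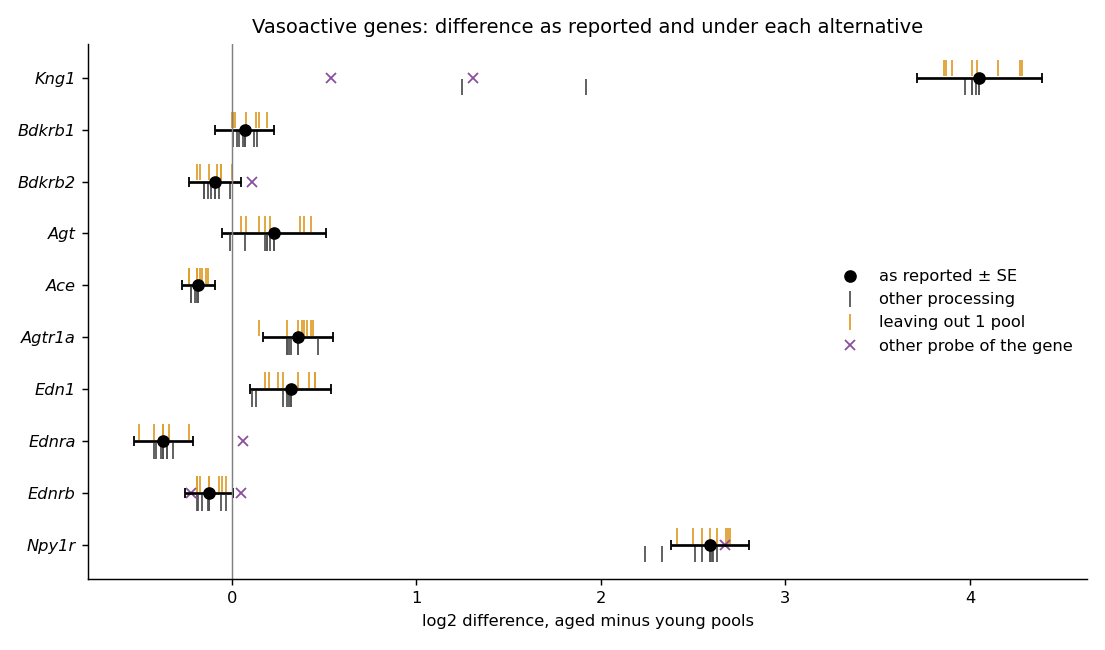
Difference (log2, aged minus young) of each member as reported with its SE (black), under other processing (grey ticks), leaving out 1 pool at a time (yellow ticks) and by its other probes (crosses). Npy1r lies between 2.24 and 2.70 throughout, Kng1 falls to 1.25 and 1.92 under 2 ways of processing and to 0.54 and 1.31 by its other probes, and the remaining genes lie within 0.50 of 0.

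The profiles most like each member were taken as those with the smallest root mean square (RMS) difference over the 8 pools after each gene was centred on its own mean, among tested genes with a symbol. For Kng1 these were Dmkn (dermokine, RMS 0.401 on the log2 scale), Serpina3g (a protease inhibitor, 0.469) and Hp (haptoglobin, a plasma protein that binds free haemoglobin, 0.474). Their aged minus young differences were 3.98, 4.09 and 4.23. For Npy1r they were Gm7609 (RMS 0.176), C4b (0.196) and C4a (0.198), with differences of 2.40, 2.51 and 2.72. C4b and C4a are closely related genes of the complement system whose probes may read each other's transcripts. These are genes picked as alike out of all those tested, so their likeness is a description.

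For the members without a clear difference the nearest profiles were taken in the same way. That these genes have differences close to those of the members follows from this choice. Nearest to Ace were Gstm5 (RMS 0.0353), Rtl8c (0.0423) and Pdgfrl (0.0467). Nearest to Bdkrb2 were Bdh2 (0.0491), Eya4 (0.0567) and Fam181b (0.0688), and to Ednra Eda (0.0499), Cdrt4 (0.0555) and Gprasp2 (0.0728). Bdkrb1 was nearest to 4930412C18Rik (0.0704), 1700001J11Rik (0.0711) and Lrrc19 (0.078), and Ednrb to Olfr373 (0.079), Rnasek (0.0841) and Inmt (0.0849). Agtr1a was nearest to Ripply3 (0.0951), 1700096K18Rik (0.102) and Adgrv1 (0.102), Edn1 to Cited2 (0.129), Sp6 (0.146) and Osr2 (0.149), and Agt to Dnajb3 (0.191), Ism1 (0.203) and Zscan25 (0.205).

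The other genes of these and related systems show what surrounds the members. In 13 lists with 113 genes, 111 were on the array, 72 were tested and 24 were well above background on no array. 3 genes rose and 1 fell in aged pools, which is 5.56% of those tested, against 3.17% of all genes. The median difference was 0.02 over the listed genes and 0.0014 over all genes tested.

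In the kinin system 8 of 13 genes were tested, and 1 fell and 0 rose. The gene that fell was Cpm, carboxypeptidase M, a membrane enzyme that removes the last arginine of kinins and so makes ligands of the B1 receptor. It read a mean of -1.21 ± 0.235 in young and -2.24 ± 0.331 in aged pools (SD, n = 4 each), a difference of -1.03 ± 0.18 (SE, limma adjusted p = 0.0209), with every aged pool below every young pool. It stayed past the threshold under 12 of 19 alternatives. Klk1, a tissue kallikrein that releases kinins, was well above background on no array. The same held for Cpn1 and Cpn2, the subunits of the plasma carboxypeptidase. F12, the contact factor that starts kinin release in plasma, was so on 1 aged array. In contrast, Klkb1, the gene of plasma kallikrein, was so on all 8 arrays and differed by 0.43 ± 0.31 (SE, limma adjusted p = 0.653). Cpd, another carboxypeptidase, was also so on all 8 arrays and differed by -0.08 ± 0.08 (SE, limma adjusted p = 0.761).

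In the renin-angiotensin system 10 of 16 genes were tested, and 1 rose and 0 fell. Nln, neurolysin, a peptidase that cuts several vasoactive peptides, had means of -0.41 ± 0.0447 in young and -0.09 ± 0.0648 in aged pools (SD), a difference of 0.32 ± 0.07 (SE, limma adjusted p = 0.0462). That call stood at the edge of the threshold and held under 3 of 19 alternatives. Ren1, the gene of renin, was well above background on 4 young and 3 aged arrays, with a difference of -0.20 ± 0.23 (SE). The second AT1 gene Agtr1b was well above background on no array.

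The endothelin list held 4 genes, of which 2 were tested and 0 passed. Ece1, the main enzyme that releases endothelin-1 from its precursor, differed by -0.01 ± 0.08 (SE, limma adjusted p = 0.988). Its relative Ece2 differed by 0.30 ± 0.22 (SE, limma adjusted p = 0.652). Edn2, another endothelin precursor, was well above background on no array, and Edn3 on 1 aged array.

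Of 8 genes of the neuropeptide Y system besides Npy1r, 3 were tested and 0 passed. Npy, which encodes the ligand, had means of -5.09 ± 0.633 in young and -4.27 ± 0.282 in aged pools (SD), and was well above background on 2 young and 4 aged arrays. Its difference of 0.82 ± 0.30 (SE) did not pass (limma adjusted p = 0.235). Npy4r, whose main ligand is pancreatic polypeptide, differed by 0.18 ± 0.11 (SE, limma adjusted p = 0.549). The receptors Npy2r, Npy5r and Npy6r were well above background on no array.

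Other vasodilator and vasoconstrictor systems held 1 further call among receptors. Adcyap1r1, the PAC1 receptor of the vasodilator peptide PACAP, had means of 0.77 ± 0.0806 in young and 1.20 ± 0.0786 in aged pools (SD), a difference of 0.43 ± 0.08 (SE, limma adjusted p = 0.0235) that held under 10 of 19 alternatives. The genes of PACAP and VIP themselves, Adcyap1 and Vip, were well above background on no array. In the natriuretic peptide, adrenomedullin, apelin, vasopressin and oxytocin, urotensin, tachykinin and relaxin lists, 23 genes were tested and 0 passed.

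The tested genes of those lists with the largest differences were as follows. Adm, the precursor of adrenomedullin, differed by 0.62 ± 0.16 (SE, limma adjusted p = 0.087). Ramp2, which encodes an accessory protein of the adrenomedullin receptor, differed by -0.35 ± 0.08 (SE, limma adjusted p = 0.0596). Calcrl, the receptor gene itself, had no large difference and is given beside it, at 0.03 ± 0.09 (SE, limma adjusted p = 0.945). Rxfp3, a receptor of relaxin-3, differed by -1.13 ± 0.30 (SE, limma adjusted p = 0.09), and Aplnr, the apelin receptor, by -0.87 ± 0.25 (SE, limma adjusted p = 0.122). None of these genes passed the threshold. Oxtr, the oxytocin receptor, differed by 0.53, Nppc, the precursor of C-type natriuretic peptide, by -0.60, its receptor Npr2 by -0.23, Tacr2, a tachykinin receptor, by 0.38, Apln by 0.29, Rln3 by -0.22, Avpr1a by 0.21, Uts2r by 0.14 and Tac1 by -0.07.

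Among 25 effectors that act behind these receptors, 24 were tested, 1 rose and 0 fell. Ptgs1, cyclooxygenase 1, which starts the making of prostaglandins, had means of -1.63 ± 0.0804 in young and -0.12 ± 0.384 in aged pools (SD). The difference of 1.51 ± 0.18 (SE, limma adjusted p = 0.00343) held under 18 of 19 alternatives. G protein subunits, phospholipase C isoforms, arrestins and nitric oxide synthases had no gene past the threshold. The groups did not overlap for 4 of the 24 genes, against 10.7% of all genes. Besides Ptgs1 these were Gucy1a1 at 0.40 (limma adjusted p = 0.106), Gucy1b1 at 0.30 (limma adjusted p = 0.0892) and Prkg1 at 0.32 (limma adjusted p = 0.0825). They were named after their values were seen. The median difference of the list was 0.05.

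**Figure D4:**
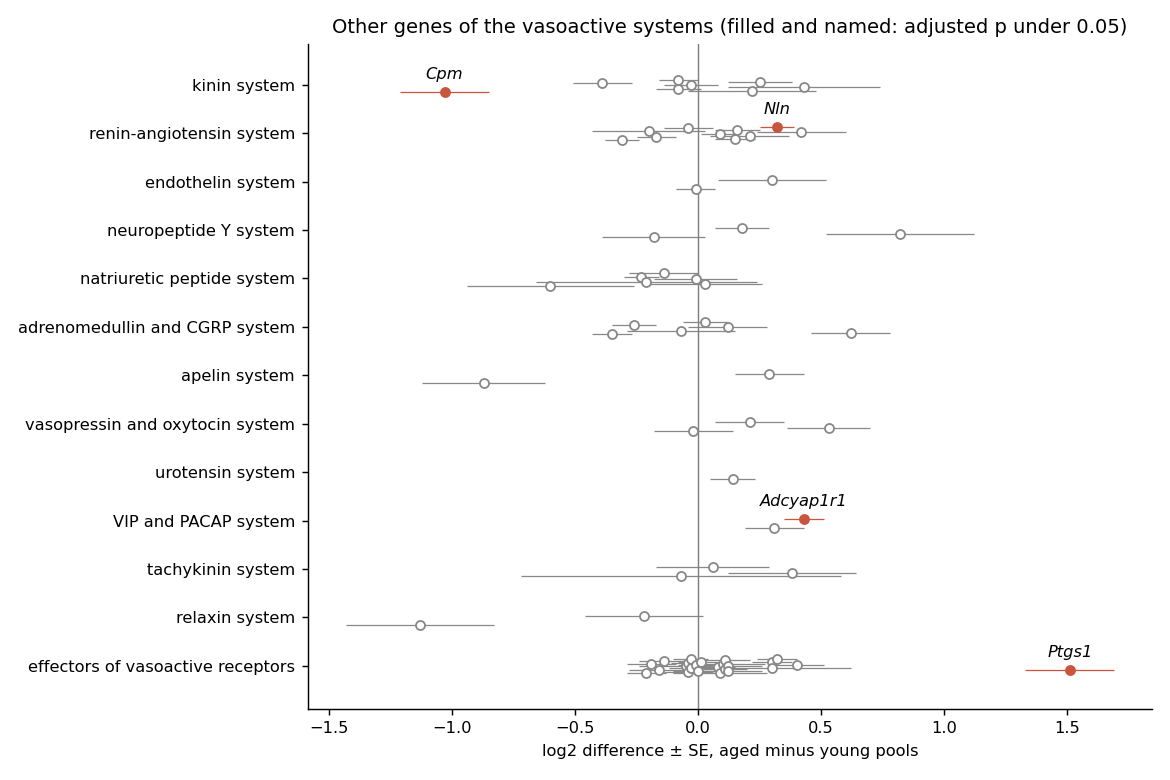
Difference (log2, aged minus young, ± SE) of the 72 tested genes of 13 vasoactive lists, with 1 row per list. Filled red points are the 4 genes with an adjusted p under 0.05: Cpm at -1.03, Nln at 0.32, Adcyap1r1 at 0.43 and Ptgs1 at 1.51.

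Other cells of the heart carry several of the members, so markers of those cells were read in the same pools. All 12 listed markers of the sorted cMSCs, Pdgfra and Ly6a (Sca-1) among them, were well above background on every array, with summed levels of 1840 to 2670 in young and 1840 to 2440 in aged pools and 0 calls. The 2 with the largest differences were Ly6a at 0.67 (limma adjusted p = 0.0516) and Col3a1 at -0.38 (limma adjusted p = 0.124). All 12 endothelial markers were also well above background on every array, Pecam1 (the gene of CD31) included. Their summed level was 107 to 136 in young and 173 to 239 in aged pools, carried by Ly6c1 (difference 0.69, limma adjusted p = 0.0388), which was the 1 marker of the 12 that passed, followed by Vwf at 0.37 (limma adjusted p = 0.608). The median difference of the list was 0.05. At its other end, and named after their values were seen, were Tek at -0.33, with every aged pool below every young pool (limma adjusted p = 0.124), Tie1 at -0.22 (limma adjusted p = 0.826) and Cdh5 at -0.14 (limma adjusted p = 0.86). Endothelial cells are a known source of Edn1 and Ace.

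Of the mural markers, for cells that carry endothelin and angiotensin receptors, 11 of 12 were well above background on every array. Their sums were 37.8 to 45.6 in young and 34.5 to 38.1 in aged pools with 0 calls. The largest differences were Cnn1 at -1.03 (limma adjusted p = 0.252) and Myh11 at -0.62 (limma adjusted p = 0.15). The median difference of the list was -0.23. Kcnj8 at 0.12, Abcc9 at 0.06 and Tagln at 0.01, named after their values were seen, lay on the other side of 0. Schwann cell markers summed to 2.75 to 3.05 in young and 3.68 to 4.43 in aged pools. In that list Mbp rose by 1.71 (limma adjusted p = 0.00218), Cdh19 differed by 0.36 (limma adjusted p = 0.525), and 5 of 9 genes were well above background on every array. The part of these cells in the members' levels was not tested.

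Macrophage markers summed to 25.4 to 37.8 in young and 31.0 to 46.7 in aged pools with 0 calls among 9 tested. In that list 7 of 11 genes were well above background on every array and Fcgr1 on none. Itgam, with mean levels of 4.46 in young and 4.82 in aged pools, made up most of the sum. Among the 9 tested genes Lyz2 at 0.52 (limma adjusted p = 0.675) and Itgam at 0.36 (limma adjusted p = 0.492) differed most. Named after their values were seen, Ptprc and Csf1r both differed by 0.07 and Adgre1 by -0.01. The untested Cx3cr1 differed by -0.41. The 7 mast cell markers summed to 0.505 to 0.693 in young and 0.494 to 0.89 in aged pools. Of these, 3 were well above background on every array, and Cpa3 and Ms4a2 were well above background on no array. Hdc rose by 1.47 (limma adjusted p = 0.0176) and Mcpt4 fell by 1.45 (limma adjusted p = 0.0061). Cardiomyocyte markers summed to 10.8 to 12.8 in young and 6.07 to 10.3 in aged pools, and 7 of 11 were well above background on every array. 2 of 9 tested fell, Tnni3 and Pln (difference -0.90, limma adjusted p = 0.0445), while Mb at -0.64 did not pass (limma adjusted p = 0.154). Mesothelial sums were 0.281 to 0.676 in young and 0.261 to 1.02 in aged pools with 0 calls and 1 of 8 genes on the array well above background in every pool. Wt1 at 0.75 (limma adjusted p = 0.421) and Msln at -0.63 (limma adjusted p = 0.832) differed most.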

How the data were processed

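RNA of 8 pools of sorted cMSCs was read on 8 arrays of 1 slide, on a single scan date. For every array the authors deposited scanner output, made with Agilent Feature Extraction 10.10.1.1 (submitters' processing notes), whose processed signal is an intensity with background taken off by that software and without normalization across arrays. A deposited table by the authors holds log2 values for these arrays, without centring by gene. Each column has the median 8.12 and sorted columns lie at most 0.078 apart, as after quantile normalization. The table was used as an alternative. How it was filtered and background-corrected is not stated in the sources used.

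Control spots and spots marked as outliers were left out, log2 signals were taken relative to the 75th percentile of their array (479 to 816 intensity units in young and 510 to 793 in aged pools), and repeated spots were averaged per probe. A probe was kept if the 4 arrays of one group or the other all had it well above background (30824 of 56605), and a gene was represented by its brightest such probe. Genes were named through RefSeq accessions of GRCm38.p6 where these matched (32994 probes) and otherwise by the array files. No spot was saturated, and the share of spots well above background was 57.8% to 63.4% per array. The number of arrays limits the precision. Aged and young pools were compared in limma 3.58.1 (R 4.3.3, lmFit and eBayes) with Benjamini-Hochberg adjustment over 20225 genes and a threshold of 0.05. In simulated data for this comparison, over 20225 genes, the fit recovered 31.9%, 70.7% and 94.8% of genes changed by 0.5, 1 and 2 on the log2 scale.

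The members and the gene lists were chosen with earlier results of these data known. Named in the text by rule are all members with every probe, of each pathway list up to 3 genes with the largest difference among those that passed (2 where none passed), the 3 profiles most like each member, and the 2 markers of each list with the largest difference. Other genes of the lists, such as those given as well above background on no array, were named outside this rule with their values known. Pool numbers and the codes in the titles were tried as pairings. Same-numbered pools deviated together with a correlation of 0.181, -0.17 and -0.269, so numbers were not taken to pair samples. Alternatives were other normalizations, background corrections, filters, probe choices, blocks and weights, and leaving out each pool. Tables and plots used pandas 2.3.3 and matplotlib 3.10.9 in Python 3.11.15.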

Additional observations from a re-analysis of the deposited data

Results flagged for a closer look

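In 66 groups of 4 pools (each probe of a member that was well above background on some array, and each of the 21 pathway genes that the rule for named genes gave), 6 had 1 pool set apart from the other 3, where chance alone gives about 1 in 20. The number given is the gap to the nearest pool divided by the range of the group. Aged replicate 4 was the pool set apart in 3 of them. It was the highest aged pool for Agtr1a (0.916), at -0.54 against -1.41 to -1.33 in the other aged pools, for Kng1 probe 3 (0.899), at -2.25 against -7.68 to -7.13, and for Tac1, the precursor of substance P (0.888), at -1.49 against -4.39 to -4.07.

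Young replicate 4 was the lowest young pool for Kng1 probe 3 (0.882), at -8.07 against -7.25 to -7.14, where no young pool was well above background, and for Bdkrb2 (0.853), at -4.36 against -4.09 to -4.04. Young replicate 5 was the lowest young pool for Ece2 (0.889), at -1.98 against -1.08 to -0.97.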

How the results depend on the processing

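Of the members' differences under other processing, with pools left out and by other probes, 190 values moved by less than the spread between pools and 6 by more: Kng1 after normexp correction (1.25), in the authors' log2 table (1.92) and by probes 2 (0.54) and 3 (1.31), Ednra by probe 2 (0.06) and Npy1r after normexp correction (2.24). The counts of members past the threshold rest on the values that chose them and say nothing about stability. They were 2 as higher, or 1 where the filter for probes well above background on all 8 arrays leaves out Kng1, and 0 as lower. The count of other pathway genes that rose was 3, and 1 under median scaling, without a filter, with probes averaged per gene or with a block by pool code, 6 with array weights, and 1 to 2 with 1 pool left out. The count that fell was 1, and 0 without a filter or with a block by pool code, 2 with probes averaged per gene, 4 with array weights, and 0 to 3 with 1 pool left out. Over all genes, 479 higher and 162 lower became 201 and 45 without a filter, 207 and 51 with the block by pool code, 344 lower with array weights, and 262 to 373 higher and 68 to 160 lower with 1 pool left out. With the pool number as a replicate block, which uses only the 6 pools whose numbers both groups share to estimate the difference, 14 genes were higher and 2 lower, and 0 other pathway genes passed in either direction. The differences of Kng1 and Npy1r in that fit were 3.97 and 2.61. Causes were not tested. Dim probes limit the rest: Kng1 in young pools has no measured level, and Bdkrb2 and Ednrb lie close to background.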

Other observations

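The genes next to Kng1 on chromosome 16 were looked up after its values were seen, within 200000 bases of its probes on mm9. Fetub, which encodes the plasma protein fetuin-B, read 2.23, 2.19, 2.15 and 1.55 in young replicates 2 to 5 and 3.42, 3.21, 3.39 and 3.87 in aged replicates 1 to 4, so that every aged pool lay above every young pool. Its neighbour Ahsg read 4.01, 3.40, 3.21 and 2.80 in young and 4.51, 4.63, 4.49 and 5.03 in aged pools, also without overlap. Kng2, a second kininogen gene, and Adipoq were well above background on no array, and Hrg, which encodes a histidine-rich plasma glycoprotein, on 1 young and 1 aged array. On the other side of Kng1, the probes of Eif4a2 differed by -0.05 to -0.10. Npy5r, which lies beside Npy1r on chromosome 8, was well above background on no array, and Naf1, on the far side of Npy1r, read 1.82 ± 0.105 in young and 2.17 ± 0.0855 in aged pools (SD, n = 4 each).

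Aged replicate 4 had the highest level among the aged pools for 5 of the 10 members, aged replicate 2 for 3 and aged replicate 1 for 2. The same count was not taken over all genes, so nothing is read from it.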
